A study of Mus musculus with 3 samples.

Results

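Zfp genes in which the longest exon makes up under 50% of the listed exonic length were examined in mouse embryonic stem cells (ESCs). The values are from RNA that came down with YTHDF2. The gene table held 399 genes named Zfp and a number, pseudogenes and 6 named genes (Zfp36, Zfp36l1, Zfp36l2, Zfp42, Zfp352 and Zfp750) left out. In 87 of them the longest exon, after overlapping exons were merged, made up under 50% of the exonic length given in the table, and these are called the low-share Zfp genes here. The other 312 are called the high-share Zfp genes, and the whole table held 49997 genes. Both names refer to the length in the table, and most genes of both kinds have several exons. In 16 of the 87, as described below, the longest exon makes up 50% or more of the length on the main chromosome alone. Of the 87 genes, 79 passed the filter on low counts and were tested.

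E14 ESCs had been treated with doxycycline (Dox) for 24 h, and RNA bound by an anti-YTHDF2 antibody was sequenced in 2 immunoprecipitation (IP) libraries, called IP1 and IP2, beside 1 Input library. As the study describes it, the line carries a Dox-inducible Dux transgene, whose product moves ESCs toward a state like the 2-cell embryo, and a tdTomato reporter driven by the promoter of the MERVL retroelement. Dox was given in all 3 libraries, no IP with a control antibody was analysed here, and nothing says that the IP libraries came from separate cultures, so that p-values measure only the spread between these libraries. Counts per library totalled 36986994 (Input), 35259827 (IP1) and 35888743 (IP2). All 8 ESC markers were present in the Input, at 477 to 1889 counts per 1000000 counted reads (CPM), while 5 fibroblast markers summed to 30.4 CPM and 2 of these were at 0. Since the cells of the culture were pooled in each library, fewer cells of a type and less RNA per cell cannot be told apart.

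YTHDF2 is a cytoplasmic protein that recognises N6-methyladenosine (m6A) in RNA and recruits the CCR4-NOT deadenylase, which shortens poly(A) tails and starts decay. Zfp genes encode zinc finger proteins, most of them transcription factors in which a series of C2H2 fingers reads DNA. In many of them, above all those with a KRAB repressor domain that silences retroelements, a single long last exon encodes the whole array of fingers. Long exons and the region of the stop codon are where m6A is best known to lie. Zfp genes in which no exon takes most of the length are more mixed, and include KRAB proteins, chromatin regulators whose fingers are spread over several exons and proteins that bind RNA or act on ribosomes.

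The exon structure of the 79 tested genes was compared with that of the 298 tested high-share Zfp genes. The low-share genes had a median of 10 exons and a longest exon of 2113 bases. In the high-share genes the medians were 5 exons and 3447.5 bases. The share of the longest exon, by which the genes were divided, had medians of 39.4% and 78.7%, a difference that the rule fixes and that the exon numbers and lengths are not independent of. The longest exon was the last one in 47 of the 79 genes, an internal one in 26 and the first in 6. A coding pattern of 11 bases for the conserved linker between neighbouring C2H2 fingers, searched on the sense strand of the exons, was found in 43 of the 79 genes (54.4%). It was found in 82.2% of the high-share genes and in 4.45% of all other tested genes. A match is a description of the sequence and not evidence of a folded finger.

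The first such match in coding sequence is printed below for the genes that hold one among the 5 highest and 5 lowest called genes at a mean of at least 5 CPM, to show that the same element occurs in transcripts of both kinds. Each window has 30 bases, 5′ to 3′ on the sense strand of GRCm38.p6 (RefSeq), with the linker pattern in capitals. Zfp3, Zfp652, Zfp82 and Zfp513 were among the most enriched genes, and Zfp534, Zfp979 and Zfp993 among the most depleted. The windows lie at chr11:70771601-70771630 (+), chr11:95753445-95753474 (+), chr7:30057152-30057181 (-), chr5:31200494-31200523 (-), chr4:147675401-147675430 (-), chr4:147613138-147613167 (-) and chr4:146718121-146718150 (+), in the order of the lines.
Zfp3: cctcctgtgGGAGAGAAGCCtcacacgtgt
Zfp652: cagcattctGGAGAGAAACCcttcagatgt
Zfp82: attcacacaGGCGAGAAGCCctatgaatgt
Zfp513: acacacagcGGGGAGAAGCCgttccgctgt
Zfp534: attcataaaGGAGAGAAACCttacaaatgc
Zfp979: attcatacaGGAGAGAAACCttacaaatgc
Zfp993: attcattcaGGAGAGAAACCttacaaatgt
Matches over the whole exonic sequence numbered 10 in Zfp3, 2 in Zfp652, 9 in Zfp82, 5 in Zfp513, 12 in Zfp534, 3 in Zfp979 and 31 in Zfp993.

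Low-share Zfp transcripts were found on both sides of the comparison. In the edgeR quasi-likelihood test, with p-values adjusted over all 19601 genes tested, 13 of the 79 (16.5%) were enriched in YTHDF2 IP and 9 (11.4%) were depleted, at an adjusted p under 0.05 and a fold change over 2. The background over all genes tested was 15.2% enriched and 14.0% depleted, so that neither share lies far from it. The median log2 fold change of the 79 was 0.33, with quartiles of -0.52 and 0.82, against 0.0065 over all genes. It was 0.41 in IP1 and 0.24 in IP2. At an adjusted p under 0.05 with no minimum fold, 38 of the 79 were higher and 21 lower in IP, where 28.5% and 30.1% of all genes were. With a dispersion fixed at 0.1, well above the spread between the IP libraries, 6 genes were enriched and 2 depleted, and with a limit of 40% for the longest exon 5 of 42 tested genes were enriched and 6 depleted, with a median of 0.16.

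**Figure D1:**
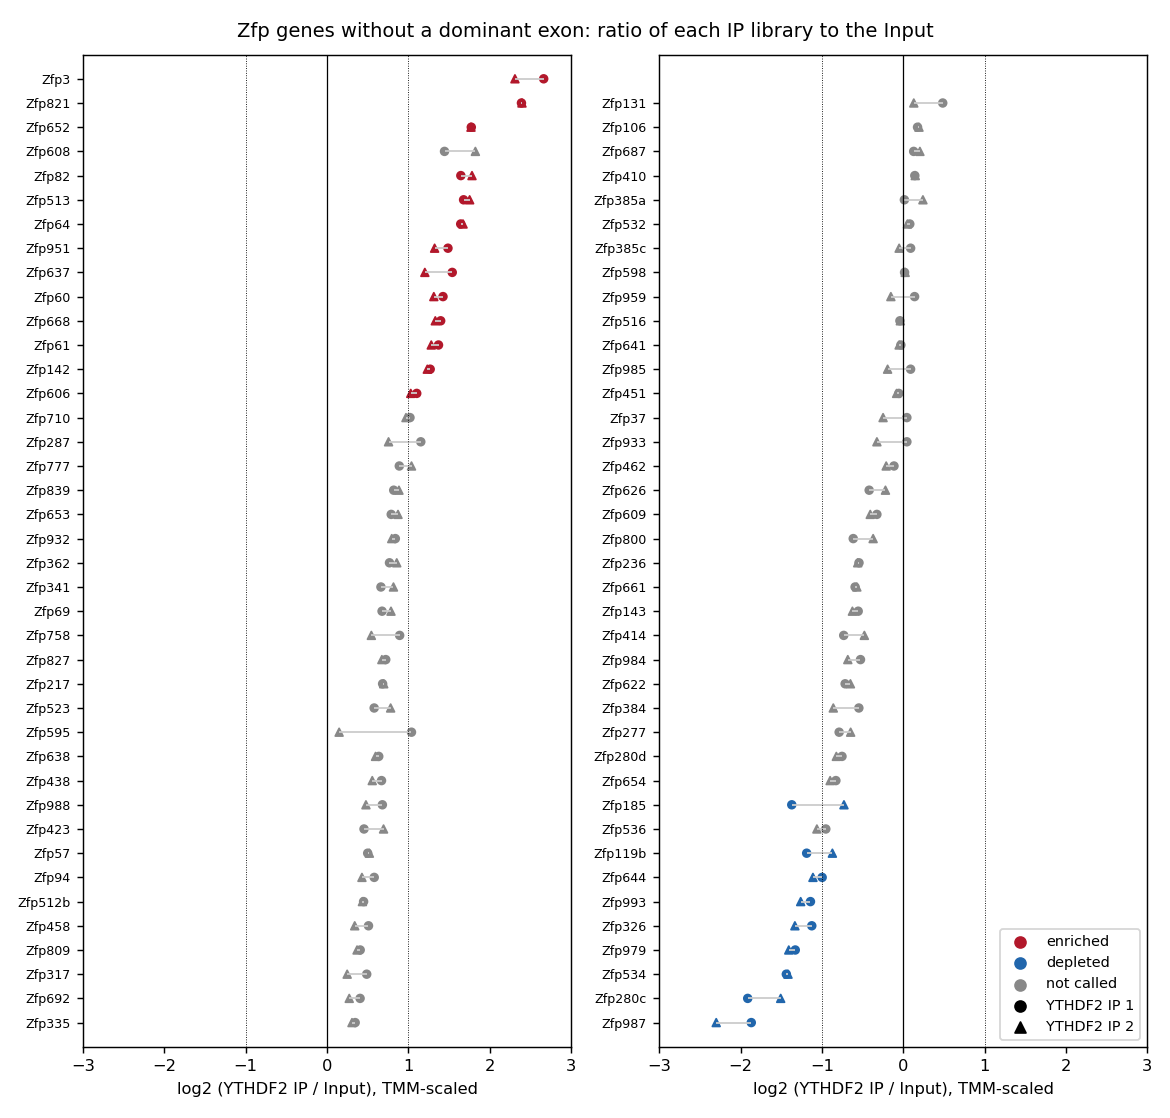
Log2 ratio of YTHDF2 IP1 (circles) and IP2 (triangles) to the Input for the 79 tested low-share Zfp genes, ordered by the fitted log2 fold change from the upper left to the lower right, with dotted lines at 2-fold. The 13 enriched genes lie beyond 2-fold in both IP libraries, and most pairs of points lie close together.

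Both IP libraries lay on the same side of the Input for 74 of the 79 genes, higher for 47 and lower for 27, and on different sides for 5. The log2 ratios of the libraries differed between the replicates with an SD of 0.216 over the 79 genes. All 13 enriched genes exceeded 2-fold in each IP library alone, while 7 of the 9 depleted genes did so in IP2 and 8 of 9 in IP1. The depth behind the values varied widely, since Input counts of the tested genes ran from 4 for Zfp608 to 24648 for Zfp57, with a median of 1054. The summed share of the 87 genes was 0.396% in Input, 0.552% in IP1 and 0.543% in IP2, with 95% Wilson intervals of 0.394 to 0.398%, 0.550 to 0.555% and 0.540 to 0.545%, which cover counting error only. Mates of a pair were counted on their own, so the intervals may be too narrow even for that. Abundant genes weigh most in the sums of 146548, 194700 and 194832 counts, of which Zfp57 alone held 24648, 35577 and 36619.

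Zfp3, on chromosome 11 (70764447 to 70772928), had the largest value. It was at 4.13 CPM in Input, 26.2 CPM in IP1 and 20.5 CPM in IP2. The log2 fold change was 2.50 ± 0.20 (SE, edgeR adjusted p = 8.51e-18), and both IP libraries lay far above the Input. Zfp3 is annotated on a second sequence of the assembly, and on chromosome 11 alone its longest exon makes up 94.4% of the exonic length. Zfp821, on chromosome 8 (109695252 to 109724932), held no linker match and had 10 exons. It was at 13.7 CPM in Input, 71.8 CPM in IP1 and 72.1 CPM in IP2, a log2 fold change of 2.39 ± 0.12 (edgeR adjusted p = 7.79e-31). It was the only enriched gene of the 79 without a linker match.

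Zfp652, a repressor that works with the CBFA2T corepressors, followed at 18.8 CPM in Input, 64.3 CPM in IP1 and 64.2 CPM in IP2 (log2 fold change 1.77 ± 0.11). Zfp82 was at 7.78 CPM in Input, 24.4 CPM in IP1 and 26.8 CPM in IP2 (1.72 ± 0.17). Zfp513 was at 38.2 CPM in Input, 122 CPM in IP1 and 129 CPM in IP2 (1.72 ± 0.087). In these 3 genes the IP libraries differed from each other by far less than from the Input. Zfp64, a zinc finger transcription factor on chromosome 2, was the most abundant of the enriched genes, at 120 CPM in Input, 376 CPM in IP1 and 383 CPM in IP2. Its log2 fold change was 1.66 ± 0.064 (edgeR adjusted p = 4.63e-37), and 11 exons carry its transcript sequence, the longest making up 32.8%.

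The remaining enriched genes, which fall outside the rule for named genes, were Zfp951, Zfp637, Zfp60, Zfp668, Zfp61, Zfp142 and Zfp606, with log2 fold changes from 1.07 for Zfp606 to 1.41 for Zfp951. Of the 13 enriched genes, 5 lie on chromosome 7, namely Zfp82, Zfp60, Zfp668, Zfp61 and Zfp606. That chromosome was singled out after the values were seen. Of its 10 tested low-share genes 5 were enriched, where 19.1% of all 1488 genes tested on the chromosome were. In edgeR and in DESeq2 0 of the 10 were depleted, with 3 lower at an unadjusted p under 0.05. Zfp710, also on chromosome 7, missed the fold threshold at 126 CPM in Input, 256 CPM in IP1 and 247 CPM in IP2, a log2 fold change of 0.996. Zfp710 was called in DESeq2, which gave 14 enriched and 8 depleted genes.

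**Figure D2:**
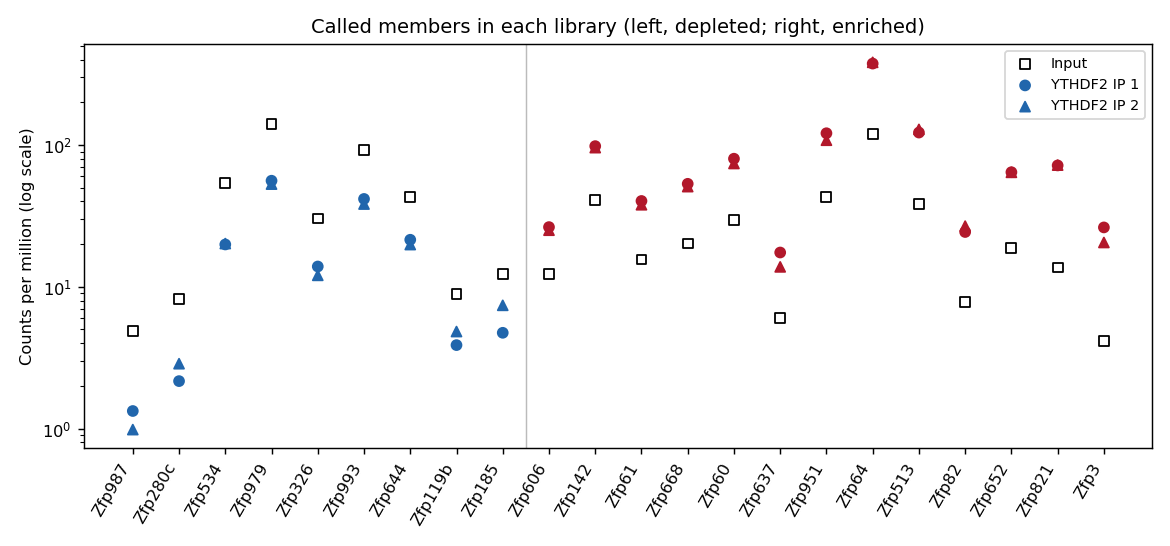
CPM on a log axis in the Input (open squares), YTHDF2 IP1 (circles) and IP2 (triangles) for the 9 depleted (blue, left) and 13 enriched (red, right) low-share Zfp genes. The Input lies on 1 side of both IP libraries in all 22 genes, and the called genes span levels from under 5 CPM (Zfp3 and Zfp987) to over 100 CPM (Zfp64 and Zfp979) in the Input.

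The depleted genes were 4 of a cluster of related zinc finger genes on distal chromosome 4 and 5 from elsewhere. Zfp987 had the lowest value, at 4.89 CPM in Input, 1.33 CPM in IP1 and 0.983 CPM in IP2 (log2 fold change -2.08 ± 0.36, edgeR adjusted p = 5.72e-07). Exons of the pseudogene Vmn2r-ps17 overlap 1938 of its 2834 exonic bases on chromosome 4, where reads were not counted, so its value rests on the remaining bases. Zfp280c, on the X chromosome, was at 8.17 CPM in Input, 2.16 CPM in IP1 and 2.87 CPM in IP2 (-1.70 ± 0.27). It had 22 exons and no linker match. Both genes fell below the mean level set for named genes and are named here after their values were seen.

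Zfp534 was at 53.9 CPM in Input, 19.9 CPM in IP1 and 20.2 CPM in IP2 (-1.43 ± 0.11, edgeR adjusted p = 3.72e-20). Zfp979 was at 141 CPM in Input, 56.0 CPM in IP1 and 53.0 CPM in IP2 (-1.37 ± 0.076). Zfp993 was at 91.9 CPM in Input, 41.7 CPM in IP1 and 38.3 CPM in IP2 (-1.20 ± 0.087). These 3 genes and Zfp987 lie in the distal chromosome 4 cluster, and in all of them the Input was more than 2 times either IP library. Zfp326, a component of a complex that couples RNA polymerase II to splicing, was at 30.3 CPM in Input, 13.9 CPM in IP1 and 12.0 CPM in IP2 (-1.23 ± 0.14). Zfp644, a cofactor of the histone methyltransferases G9a and GLP, was at 42.9 CPM in Input, 21.5 CPM in IP1 and 19.9 CPM in IP2 (-1.05 ± 0.11). Total count scaling, which shifted the median of all genes by 0.096, left Zfp644 at -0.96, and Zfp644, Zfp119b and Zfp185 then fell short of the fold threshold. With the GC trend described below removed, Zfp644 came to -0.47, and Zfp534, Zfp979, Zfp993, Zfp119b and Zfp185 also fell short of 2-fold. The longest exon of Zfp644 had 8974 bases, of which 0.123% were coding. The last of the 9, Zfp119b and Zfp185, had log2 fold changes of -1.02 and -1.01. In IP2 alone their log2 ratios were -0.87 and -0.73. Neither was called under TPM scaling or with no filter on low counts. Zfp185 was also not called in DESeq2 or with a mean of at least 100 counts. Zfp185, a LIM domain protein of the actin cytoskeleton rather than a DNA-binding factor, was at 12.3 CPM in Input, 4.74 CPM in IP1 and 7.40 CPM in IP2, which differed from each other more than those of most called genes.

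The distal chromosome 4 cluster was singled out after its values were seen. It holds 10 of the 87 genes, from the start of Zfp987 at position 146097312 to the end of Zfp933 at 147849126, of which 8 were tested. Among these 4 were depleted, and 0 were enriched in edgeR and in DESeq2, with 1 higher at an unadjusted p under 0.05. Of all 32 genes of any name tested between these positions, 9 (28.1%) were depleted and 3 (9.38%) enriched. The 32 include the 8 low-share genes, which supply 4 of the 9. The gene of the cluster that was higher was Zfp988, at 126 CPM in Input, 202 CPM in IP1 and 175 CPM in IP2 (0.58 ± 0.071), and it came to 1.37 with the GC trend described below removed. Zfp985 (-0.044), Zfp933 (-0.13) and Zfp984 (-0.60) lay between, so the values within the cluster differed. Zfp600 and Zfp992 had no count in any library. All of their exonic bases on chromosome 4 (4306 and 3691) overlap exons of the pseudogenes Vmn2r-ps17 and Vmn2r-ps16, and reads over exons of different genes were not counted. Overlap on the second sequence on which each is annotated was not measured. Their 0 therefore says nothing about their level. The cluster's genes resemble each other, reads that map to several places were not counted, and part of each gene's reads may therefore be missing from its count.

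How the table describes these genes matters to which of them are members. Of the 87, 19 are annotated on more than 1 sequence of the assembly, and the length in the table adds the copies up. On the main chromosome alone, the longest exon makes up under 50% of the exonic length in only 3 of the 19, Zfp57, Zfp523 and Zfp984, and from 50.1% (Zfp185) to 94.4% (Zfp3) in the other 16. Without the 19 genes, 64 tested genes remained, of which 11 (17.2%) were enriched and 5 (7.81%) depleted, with a median log2 fold change of 0.36. Of the 15 tested genes on several sequences, 2 were enriched, namely Zfp3 and Zfp60, and 4 were depleted, namely Zfp987, Zfp534, Zfp979 and Zfp185.

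At the 50% limit itself, Zfp959 and Zfp641, both at 49.2%, were just inside. Zfp959 was at 7.04 CPM in Input, 7.76 CPM in IP1 and 6.34 CPM in IP2, and Zfp641 had 10 counts in each library. Just outside were Zfp219 at 50.1%, with 134 CPM in Input, 256 CPM in IP1 and 264 CPM in IP2, and Zfp607b at 50.2%, with a log2 fold change of -0.097.

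The high-share Zfp genes, measured in the same fit, had a higher median. Of the 298 tested, 84 (28.2%) were enriched and 10 (3.36%) depleted, with a median log2 fold change of 0.62 against 0.33 for the 79 low-share genes. The difference between the gene sets was not tested. Within the 79 low-share genes, the length of the longest exon had a Spearman correlation of -0.16 with the log2 fold change. All correlations given here are descriptions across genes of the same 3 libraries and genes are not independent replicates.

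**Figure D3:**
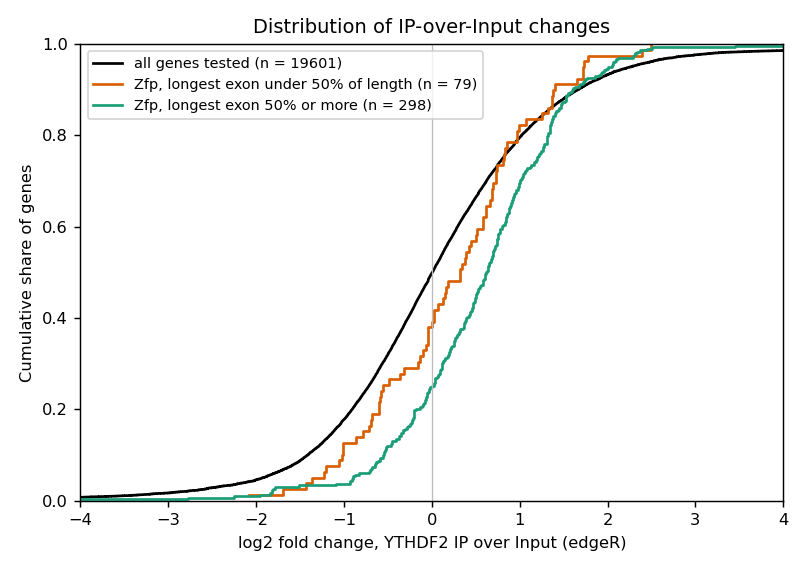
Cumulative share of genes by log2 fold change of YTHDF2 IP over Input for all 19601 genes tested (black), the 79 low-share Zfp genes (orange) and the 298 high-share Zfp genes (green). Between -1 and 0 the orange curve lies between the black and the green ones, and its median of 0.33 lies between 0.0065 and 0.62.

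By role, 26 tested genes fell into 4 function lists, which were drawn up with earlier results of these data known and leave out other regulators such as Zfp652 and Zfp64. Their counts therefore describe only the genes listed.

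Among the 6 tested genes of RNA handling and ribosomes, 0 were enriched in either tool, 2 were higher at an unadjusted p under 0.05, and Zfp326 was depleted, where 15.2% of all genes tested were enriched and 14.0% depleted. Zfp598, the ubiquitin ligase that marks collided ribosomes, was at 141 CPM in Input, 142 CPM in IP1 and 143 CPM in IP2, so the libraries hardly differed. Zfp622, a factor in the maturation of the large ribosomal subunit, was at 144 CPM in Input, 88.0 CPM in IP1 and 92.1 CPM in IP2 (log2 fold change -0.68 ± 0.071, edgeR adjusted p = 8.17e-14), under the fold threshold. Zfp106, an RNA-binding protein of motor neurons and muscle, was at 342 CPM in Input, 386 CPM in IP1 and 391 CPM in IP2 (0.18 ± 0.055). Zfp638, which binds both DNA and RNA and has 29 exons, was at 47.9 CPM in Input, 74.5 CPM in IP1 and 72.4 CPM in IP2 (0.62 ± 0.089). Zfp385a had a log2 fold change of 0.13. The median of the 6 was 0.076, and -0.62 with the GC trend described below removed.

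The 3 tested genes of imprinting and retroelement control had IP values above the Input in both libraries, and 0 were enriched or depleted in either tool. Over all genes tested 15.2% were enriched and 14.0% depleted. Zfp57, which protects DNA methylation at imprinted regions, was the most abundant of the 87 genes, also per length, at 424 TPM (counts scaled by exonic length and library) in the Input against a median of 10.7 TPM over the tested genes. It is annotated on 4 sequences. It was at 697 CPM in Input, 986 CPM in IP1 and 999.97 CPM in IP2, a log2 fold change of 0.51 ± 0.049 (edgeR adjusted p = 1.77e-15). Zfp809, which silences murine leukaemia viruses by binding their primer binding site, was at 81.0 CPM in Input, 108 CPM in IP1 and 105 CPM in IP2 (0.39 ± 0.077). Zfp932, a KRAB protein that restrains endogenous retroviruses, was at 24.2 CPM in Input, 43.4 CPM in IP1 and 42.1 CPM in IP2 (0.82 ± 0.11), the highest of the 3.

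Of the 16 transcription and chromatin regulators, 15 were tested. In edgeR and in DESeq2 0 were enriched and only Zfp644 was depleted, with 4 higher at an unadjusted p under 0.05 and a median log2 fold change of 0.066. Over all genes tested the shares were 15.2% enriched and 14.0% depleted. Zfp217, a corepressor that also binds the m6A methyltransferase METTL3 in ESCs, was at 204 CPM in Input, 327 CPM in IP1 and 330 CPM in IP2 (0.69 ± 0.060, edgeR adjusted p = 2.60e-17). Zfp423, a partner of EBF factors, was at 23.1 CPM in Input, 31.7 CPM in IP1 and 37.4 CPM in IP2 (0.58 ± 0.12). Zfp131 (0.32) and Zfp335 (0.33), a subunit of H3K4 methyltransferase complexes, passed an adjusted p of 0.05 in edgeR but not in DESeq2, where it was 0.130 and 0.0722. For Zfp131 it was 0.183 in edgeR with no filter on low counts, and the value was 0.13 without IP replicate 1. With the GC trend described below removed, Zfp335 came to -0.21, Zfp423 to 0.073 and the median of the list to -0.061. On the lower side were Zfp277 (-0.72), which interacts with Polycomb proteins, Zfp384 (-0.70), Zfp143 (-0.59), an activator of many housekeeping promoters, and Zfp609 (-0.36). With the same trend removed, Zfp277 came to -0.19 and Zfp143 to -0.29, while Zfp384 came to -0.96 and Zfp609 to -0.53. For Zfp532 (0.066), Zfp687 (0.17), Zfp410 (0.15), Zfp462 (-0.16) and Zfp516 (-0.038), the adjusted p was at least 0.0913. Zfp608 had a log2 fold change of 1.74 with an SE of 1.2, on 4 counts in Input, 12 in IP1 and 16 in IP2, and no difference was detectable at that depth. Zfp541, a germ cell factor, had 4, 6 and 0 counts and was not tested.

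In the last list, Zfp827, which acts at telomeres with the NuRD complex, was at 17.4 CPM in Input, 28.6 CPM in IP1 and 27.7 CPM in IP2 (0.70 ± 0.13). Zfp451, a SUMO ligase, was at 57.4 CPM in Input, 55.3 CPM in IP1 and 54.3 CPM in IP2 (-0.068 ± 0.090). Neither was enriched or depleted in edgeR or DESeq2, and Zfp827 was higher at an unadjusted p under 0.05.

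Features of the sequence that the 50% rule did not use were then set beside the values. The split by linker matches was chosen after the values were seen. Of the 43 tested genes with a linker match, 12 (27.9%) were enriched and 5 (11.6%) depleted, with a median log2 fold change of 0.43. Of the 36 without a match, 1 (2.78%) was enriched and 4 (11.1%) depleted, with a median of 0.10. Without the genes on several sequences the counts were 10 of 33 and 1 of 31 enriched. Under TPM scaling, in which counts are divided by exonic length before libraries are scaled, 13 genes with a match and 4 without were enriched. The 16 genes with 1 or 2 matches held 6 enriched genes, and 0 depleted in either tool with 2 lower at an unadjusted p under 0.05. The 27 genes with 3 or more matches held 6 enriched and 5 depleted genes. Over all genes tested the shares were 15.2% and 14.0%. The Spearman correlation of the number of matches with the log2 fold change was 0.14 over the 79 genes and 0.27 over the 64 on 1 sequence, against -0.15 over the high-share genes and 0.049 over all genes. Outside the Zfp genes, 16.8% of 856 tested genes with a match and 14.9% of 18305 without were enriched. In the high-share genes 72 of 245 with a match (29.4%) and 12 of 53 without (22.6%) were enriched.

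The coding share of the longest exon gave a similar split, also made after the values were seen. In 30 of the 79 genes at least 50% of the longest exon was coding, and 9 of these (30.0%) were enriched and 3 depleted, with a median of 0.65. In the other 49, 4 (8.16%) were enriched and 6 depleted, with a median of 0.024, where 15.2% of all genes were enriched. The Spearman correlation of the coding share with the log2 fold change was 0.33 over the 79 genes and 0.047 over 293 high-share genes. By position, the median was 0.13 where the longest exon was the last one, 0.60 where it was internal and -0.070 in the 6 genes where it was the first.

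**Figure D4:**
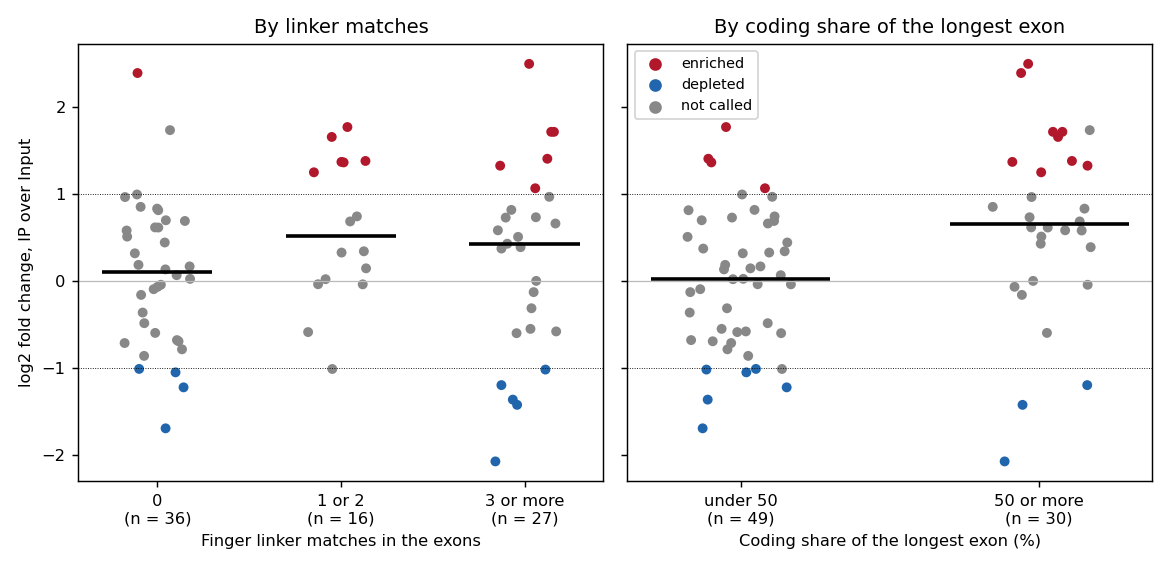
Log2 fold change of YTHDF2 IP over Input for the 79 tested low-share Zfp genes by the number of linker matches in the exons (left) and by the coding share of the longest exon (right), each point 1 gene and each bar a median. Of the 13 enriched genes (red), 12 hold a linker match, and the median is 0.65 where the longest exon is mostly coding and 0.024 where it is not.

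The base composition of the exons moved with the values. Exonic GC content ran from 34.4% in Zfp979 to 62.0% in Zfp385a, and its Spearman correlation with the log2 fold change was 0.42 over the 79 genes, 0.32 over the 64 on 1 sequence and 0.31 over 19538 genes. In the third of the genes with the lowest GC content, 3 of 27 were enriched and 6 depleted, where 15.2% and 14.0% of all genes tested were. In the third with the highest, 6 of 27 were enriched, and 0 were depleted in edgeR and in DESeq2, with 3 lower at an unadjusted p under 0.05. The 8 tested genes of the distal chromosome 4 cluster had a median GC content of 36.2%. With the trend of GC content over all genes removed, Zfp534, Zfp979 and Zfp993 came to log2 fold changes of -0.70, -0.55 and -0.43, Zfp987 to -1.29 and Zfp984 to 0.11. The other tested genes of the cluster came to 1.37 (Zfp988), 0.70 (Zfp985) and 0.49 (Zfp933), so that 4 of the 8 then lay above 0. Outside the cluster, Zfp513 came to 1.04 and Zfp280c to -1.08, both nearer to 0, and Zfp932 to 1.48 and Zfp638 to 1.18, both farther from it. With the same trend removed, the median was 0.25 for the 79 genes and 0.87 for the high-share genes. The 43 genes with a linker match had a lower median GC content (46.4%) than the 36 without (48.4%). The density of GGAC, the core of a common m6A motif, counted on the sense strand, had a Spearman correlation of 0.34 over the 79 genes, 0.21 over the 64 on 1 sequence and 0.24 over all genes, and the pattern shares bases with GC content. The median density was 3.46 per kb in the 79 genes and 3.94 per kb over all genes tested. The linker pattern and GGAC cannot overlap. The part of GC content in these values was not tested.

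**Figure D5:**
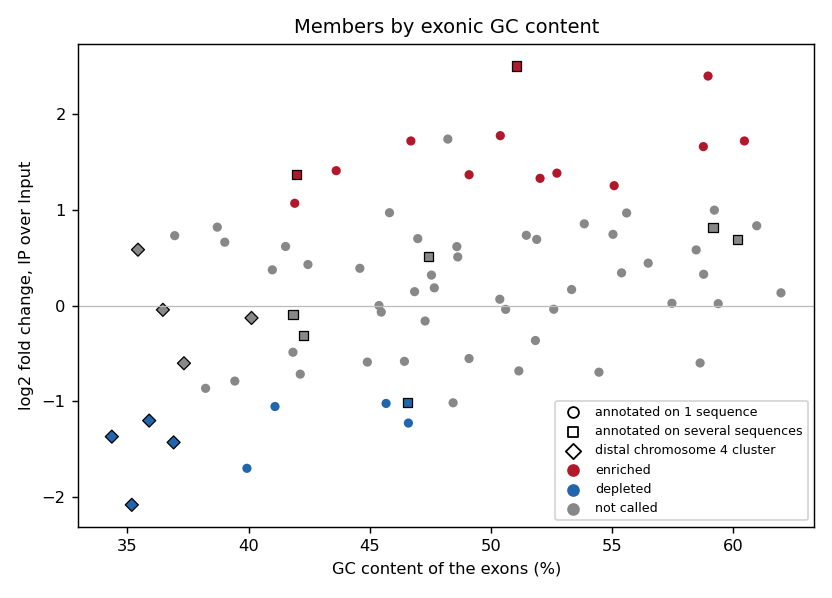
Log2 fold change of YTHDF2 IP over Input against the GC content of the exons for the 79 tested low-share Zfp genes, coloured by call. The distal chromosome 4 cluster (diamonds) lies at the low end of GC content with 4 of its 8 genes depleted, and genes annotated on several sequences elsewhere (squares) are spread over the plot.

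On the main chromosome, exons of other genes overlapped 24 of the 79. Of these, 1 was enriched (Zfp61, which overlaps its neighbour Zfp94) and 3 were depleted, against 12 and 6 of the 55 without an overlap. Over all genes tested 15.2% were enriched and 14.0% depleted. A read touching exons of different genes was not counted, and the values of the 24 therefore rest on part of their exons. The 8 genes that were not tested were Zfp616, Zfp735, Zfp366 and Zfp804a with no count in any library, against a floor of 3 counts or 0.0848 CPM in the Input, Zfp541, Zfp968 with 5, 0 and 0 counts, and Zfp600 and Zfp992, in which the overlap left no base to count on chromosome 4.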

How the data were processed

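RIP-seq counts of 1 Input and 2 YTHDF2 IP libraries were used, grouped by their titles. The authors aligned reads to mm10, and the submitters' processing notes list fastp 0.19.4, HISAT2 2.2.1 and DESeq2 1.40.2. The deposited values are raw counts per gene, and per the file headers the authors used featureCounts 2.0.3 without strand, each mate on its own and multi-mapping reads left out. The labels describe IP from purified RNA, the methods IP from a lysate.

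Counts were filtered, scaled by TMM and tested with edgeR 4.0.16 (R 4.3.3), with 1 residual degree of freedom and a prior count of 0.125. CPM are TMM-scaled. Single-library ratios had 0.5 added. For TPM values, lengths of genes on several sequences were taken on their main chromosome. The TPM scaling among the alternatives used the full listed length, with copies added up. In simulated data made for this comparison (18810 genes), 77.6% of genes changed 2-fold upward or downward met the adjusted p threshold and 90.4% of those changed 4-fold. There 18618 genes were unchanged and all genes shared 1 dispersion, whereas 58.6% of genes met that threshold in the data. These rates therefore do not give the sensitivity of the comparison. Members, lists and splits were chosen with earlier results of these data known.

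Exons were taken from the table and sequences from GRCm38.p6. Named genes were the 5 highest and 5 lowest called members at a mean of at least 5 CPM with both IP libraries on 1 side, the 5 most abundant, the tested members of 4 function lists, and 2 genes on each side of the 50% limit. Alternatives were DESeq2 1.42.0, other scalings, filters and dispersions, halved counts, single IP libraries, removal of GC and exon length trends, and other member rules.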

Additional observations from a re-analysis of the deposited data

How the results depend on the processing

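With 1 Input library, depth and the single comparison limit every value, and the 2 IP libraries alone gave the spread. No paired analysis was possible because the Input carries no replicate number. The 13 enriched genes were all called under DESeq2 size factors, total count scaling, TPM scaling, DESeq2, both filters and halved counts, with 13 to 17 enriched and 6 to 9 depleted genes in these settings. TPM scaling raised the median of all genes by 0.15 on the log2 scale, the median of the low-share Zfp genes to 0.48 and that of the high-share genes to 0.78, and total count scaling, with a shift of 0.096, raised the latter to 0.72. With the dispersion fixed at 0.1, 6 enriched genes (5 with a linker match) and 2 depleted genes were called, as a larger assumed spread does by construction. A limit of 40% for the longest exon left 42 tested genes, with 5 enriched, 6 depleted and a median of 0.16. Leaving out the genes on several sequences, or taking shares on the main chromosome, left 5 depleted genes in each case. Both member rules on several sequences, and the counts by linker match, were added after seeing the data. Enriched genes without a linker match numbered 3 under total count scaling, 4 under TPM scaling and 2 under DESeq2, no filter and a mean of at least 100 counts. With single IP libraries the median of the low-share genes was 0.24 to 0.41 and that of the high-share genes 0.59 to 0.63. With the GC trend removed, the median of the low-share genes was 0.25 and that of the high-share genes 0.87, that of the RNA handling list turned from 0.076 to -0.62 and that of the transcription and chromatin list from 0.066 to -0.061, and 12 of 13 enriched but 3 of 9 depleted genes stayed beyond 2-fold. Genes at an adjusted p under 0.05 that this trend removal took past 2-fold were 5 higher (Zfp932, Zfp758, Zfp988, Zfp287 and Zfp638) and 1 lower (Zfp414), and 37 of the 40 named genes moved by more than the spread between the IP libraries. With the trend of longest exon length removed the median of the high-share genes was 0.56. Counts of called genes have no value in the settings with no test. No other cause of these shifts was tested.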
